A study of Rattus norvegicus with 24 samples.

Results

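Nfkbia encodes IkappaB-alpha, the inhibitor that keeps the transcription factor NF-kappaB in the cytoplasm, and its level was followed in rat lung together with the other inhibitor and subunit genes of the pathway. The set was the 10 genes Nfkbia, Nfkbib, Nfkbie, Nfkbiz, Tnfaip3, Nfkb1, Nfkb2, Rela, Relb and Bcl3, taken by gene symbol. It was selected on the measured level of Nfkbia, which was lower in lungs given WCSC, the condensed smoke of whole cigarettes, at 20 mg/mL than in control lungs. Levels at 20 mg/mL are therefore descriptions here, with no test. Counts of 8 of the 10 genes were analysed, against 16881 gene symbols in all, and those 8 passed the filter on low counts that left 11421 genes for testing. Counts of Tnfaip3 and Relb were not analysed here.

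The lungs came from rats labelled as genotype WT that received WCSC or served as controls, and the study compared gene expression between the treated and the control lungs. There were 8 groups of 3 libraries, namely control, 5, 10 and 20 mg/mL of WCSC at day 6 and the same 4 groups at day 12. The sources used here give no strain, age or sex of the animals, no route of exposure and no vehicle for the controls. Whether each replicate was its own animal is also not stated, and p-values below measure only the spread between these samples.

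NF-kappaB is a family of dimers that switch on genes of inflammation and cell survival after signals from Toll-like, interleukin and TNF receptors. Those receptors activate the IkappaB kinases, which mark IkappaB proteins for destruction and free the dimers to enter the nucleus. NF-kappaB then induces Nfkbia and several other inhibitors, and this feedback ends the response. In lung, alveolar macrophages and epithelial cells use the pathway to recruit neutrophils after inhaled insults.

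The libraries held 4795667 to 11109713 counts each (median 6840815). Levels are given as CPM, the usual count scaled to library size, here after TMM scaling, with the replicates of a group in the order 1, 2, 3. The tissue label was checked with 8 alveolar type II markers such as Sftpc. Of these, 7 were measured, none was at 0 in any group, and their summed level was 7344 to 28840 CPM. Replicate 2 of 20 mg/mL at day 12 stood apart, with 3073 CPM over 9 of 10 heart muscle markers, against at most 201 CPM in the other libraries. The low end of 7344 CPM for type II markers also came from the 20 mg/mL group of day 12. That group held the lowest macrophage, alveolar type I and endothelium sums too, at 8163, 2963 and 1428 CPM. Its fibroblast markers summed to 4419 to 20324 CPM, against at most 8030 CPM in the other groups. The 8 libraries with the fewest genes detected at equal depth had at most 11751 genes, against at least 11938 in the remaining 16. Day 6 supplied 6 of these 8 libraries.

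Most promoters of the set hold letters that match the consensus for NF-kappaB binding, and they are shown first because this is a feature of the genes that does not come from these measurements. RefSeq gives a window of 250 bases before to 50 bases after the start for 9 of the 10 genes, on build GRCr8, which is not the rn6 build of the counts. The published NF-kappaB consensus, a motif of 10 letters with several degenerate positions, was searched on both strands. It was found in 7 of the 9 windows, those of Nfkbia, Nfkbie, Nfkbiz, Tnfaip3, Nfkb1, Nfkb2 and Bcl3, and not in those of Nfkbib and Rela. Over all 33469 rat windows of the same length, 1400 or 4.18% held it. The set was named as NF-kappaB feedback genes, so its share is not independent of that choice, and the difference was not tested. The Nfkbia window is chr6:78597023-78597322 on the minus strand, and its match, in capitals, begins 31 bases before the start.
Nfkbia: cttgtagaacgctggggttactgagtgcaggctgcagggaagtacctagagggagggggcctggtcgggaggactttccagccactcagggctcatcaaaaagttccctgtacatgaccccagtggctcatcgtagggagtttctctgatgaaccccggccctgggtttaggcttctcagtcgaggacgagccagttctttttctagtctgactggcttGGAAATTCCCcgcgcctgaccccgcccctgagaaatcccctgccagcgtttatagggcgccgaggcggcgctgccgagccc

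For comparison with that site, stretches of 40 bases around the match, again in capitals, are given for the genes described below.
Nfkbiz: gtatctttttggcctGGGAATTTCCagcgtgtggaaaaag
Nfkb1: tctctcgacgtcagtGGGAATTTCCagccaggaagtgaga
Nfkb2: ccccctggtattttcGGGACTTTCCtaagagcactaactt
Bcl3: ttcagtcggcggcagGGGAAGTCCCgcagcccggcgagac
Nfkbie: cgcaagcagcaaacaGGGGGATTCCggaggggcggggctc
The Nfkbiz and Nfkb1 matches hold the same 10 letters, and the Nfkbia match is those letters read on the other strand. The match began 13 bases before the start in Nfkbiz, 20 in Nfkb2, 38 in Bcl3 and 164 in Nfkbie, and 3 bases past the start in Nfkb1. The windows with a match had 57.0% to 71.7% G and C. A match describes the letters only, and no binding was measured in these samples.

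Nfkbia levels in the lungs given 10 or 20 mg/mL lay below every control library at both days, while those given 5 mg/mL were spread from below to above the controls. At day 6 Nfkbia had 1635, 1755 and 1990 CPM in control lungs, 2313, 823 and 1114 CPM at 5 mg/mL, 855, 962 and 977 CPM at 10 mg/mL, and 726, 979 and 701 CPM at 20 mg/mL. Its day 12 levels were 1628, 1572 and 1964 CPM in control lungs, 1220, 1080 and 1998 CPM at 5 mg/mL, 1098, 1042 and 1050 CPM at 10 mg/mL, and 1067, 1062 and 1119 CPM at 20 mg/mL. Taking both days together, the 6 control libraries ran from 1572 to 1990 CPM (median 1695) and the 6 libraries of 5 mg/mL from 823 to 2313 CPM (median 1167). The 6 libraries of 10 mg/mL ran from 855 to 1098 CPM (median 1010), and the 6 of 20 mg/mL from 701 to 1119 CPM (median 1021). The lowest and highest group means, 802 ± 154 CPM at 20 mg/mL and 1793 ± 180 CPM in controls, both of day 6 (SD, n = 3 each), stood 2.24-fold apart. In the order of the 8 means, 10 mg/mL at day 6 and 10 mg/mL at day 12 (931 ± 66.4 and 1063 ± 30.3 CPM) were the only neighbours whose libraries did not overlap.

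**Figure D1:**
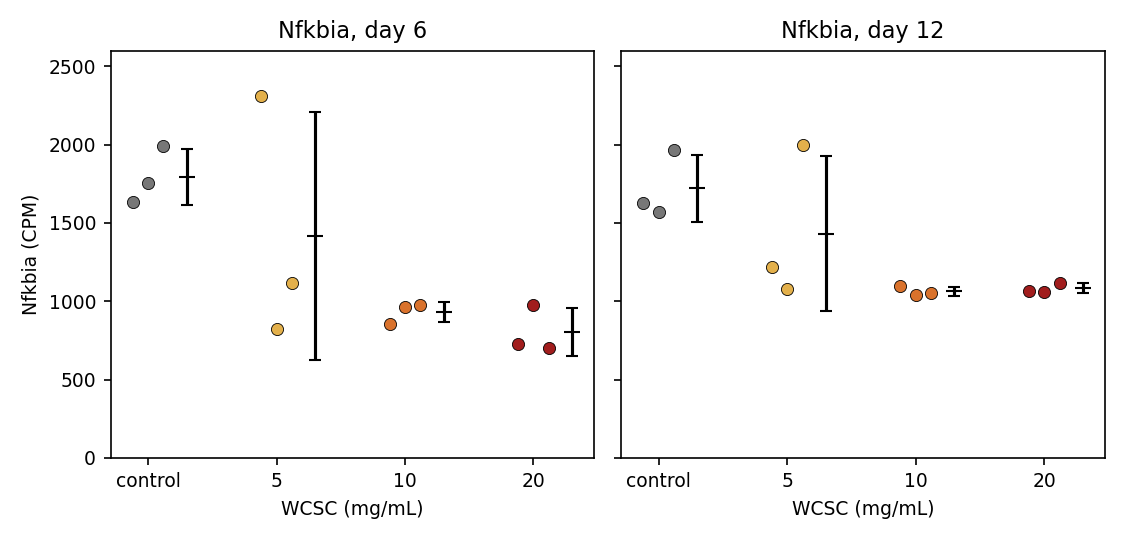
Nfkbia level in CPM (vertical axis) by WCSC dose in mg/mL (horizontal axis), at day 6 on the left and day 12 on the right. Points are single libraries in replicate order and the bar beside them is the mean ± SD over 3 libraries. The libraries of 10 and 20 mg/mL lie at 701 to 1119 CPM, below the controls at 1572 to 1990 CPM, and 1 library of 5 mg/mL at each day lies above the controls of that day.

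At 20 mg/mL the log2 fold change of Nfkbia over control was -1.16 (SE 0.28) at day 6 and -0.67 (SE 0.28) at day 12. Groups that did not overlap, with the exposed libraries lower, were found for 4.67% of all genes at day 6 and 4.11% at day 12. These values chose the set and carry no test. The summed alveolar type II markers also differed at day 6, with 23805 to 28840 CPM at 20 mg/mL against 18060 to 23446 CPM in controls, and their part in the Nfkbia values was not tested. The 9 neutrophil markers, all measured, summed to 307 to 474 CPM at 20 mg/mL against 532 to 601 CPM in controls at day 12. Elane and Cxcr2 were at 0 in those 20 mg/mL lungs and Mpo and Cxcr2 in those controls, and the part of these cells was likewise not tested. In bulk lung RNA, fewer cells of a type and less RNA per cell cannot be told apart. Without replicate 2, the library with heart muscle RNA, the day 12 log2 fold change was -0.65.

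For 10 mg/mL the log2 fold change over control was -0.95 (SE 0.28) at day 6, from 931 ± 66.4 against 1793 ± 180 CPM, and -0.69 (SE 0.28) at day 12, from 1063 ± 30.3 against 1721 ± 212 CPM (SD, n = 3 each). The groups did not overlap at either day, which held for 3.23% of all genes at day 6 and 4.55% at day 12 in this direction. Neither value passed edgeR's quasi-likelihood test with Benjamini-Hochberg adjustment over all genes, with adjusted p = 0.989 at day 6 (unadjusted 0.00296) and 1.00 at day 12 (unadjusted 0.0221). Both comparisons share their control libraries with those that chose the set, so they are no separate evidence of its direction.

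At 5 mg/mL the log2 fold change over control was -0.34 (SE 0.28, adjusted p = 0.896 by edgeR) at day 6 and -0.26 (SE 0.28, adjusted p = 1.00) at day 12, with overlapping groups. The size depended on single libraries at each day. Without replicate 1 of day 6, at 2313 CPM, the log2 fold change was -0.89, and without replicate 2, at 823 CPM, it was -0.07. Without replicate 3 of day 12, at 1998 CPM, it was -0.58, and without replicate 2 it was -0.10. Markers of other cells also separated at 5 mg/mL and day 12, and their part in the values was not tested. The 9 neutrophil markers summed to 193 to 406 CPM at 5 mg/mL against 532 to 601 CPM in controls, with Mpo and Elane at 0 in the exposed group. The 4 measured of 6 B and plasma cell markers summed to 18.8 to 25.6 CPM against 26.1 to 65.9 CPM, and the alveolar type II markers to 22403 to 23082 CPM against 18062 to 20692 CPM.

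The comparison of 10 with 5 mg/mL uses none of the libraries that chose the set. Nfkbia averaged 931 ± 66.4 CPM at 10 mg/mL and 1417 ± 790 CPM at 5 mg/mL at day 6, a log2 difference of -0.61 (SE 0.28, 95% interval -1.19 to -0.02, adjusted p = 1.00 by edgeR). At day 12 the means were 1063 ± 30.3 and 1433 ± 495 CPM, a log2 difference of -0.43 (SE 0.28, 95% interval -1.01 to 0.15, adjusted p = 1.00 by edgeR). The groups overlapped at both days. Without replicate 1 of 5 mg/mL the day 6 difference was -0.05, and without replicate 3 of 5 mg/mL the day 12 difference was -0.11. A difference between these doses beyond the replicate spread was therefore not shown.

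Between the days, Nfkbia at 10 mg/mL had 1098, 1042 and 1050 CPM at day 12 against 855, 962 and 977 CPM at day 6. These libraries did not overlap, which was so for 4.68% of all genes in this direction, but the log2 difference of 0.19 (SE 0.28) did not pass the edgeR test (adjusted p = 0.935). The day 12 over day 6 difference was 0.02 (SE 0.28, adjusted p = 0.994) at 5 mg/mL and -0.06 (SE 0.28, adjusted p = 1.00) in controls. The effect of 10 mg/mL at day 12 minus that at day 6 was 0.25 (SE 0.40, adjusted p = 1.00), and that of 5 mg/mL was 0.08 (SE 0.40, adjusted p = 1.00). The 5 mg/mL values between days changed sign when single libraries were left out, from -0.30 without replicate 3 of day 12 to 0.57 without replicate 1 of day 6.

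Across the whole table, edgeR called 0 of 11421 genes, or 0%, in each of the 13 contrasts fitted, with 143 to 790 genes at an unadjusted p under 0.05. DESeq2 called at most 4 and limma voom at most 5 in a contrast. Of the 8 genes of the set, 2 had an unadjusted p under 0.05 in 10 mg/mL against control at day 6 (Nfkbia and Nfkb1, against 2.7% of all genes), 1 at day 12 (Nfkbia, against 2.09%) and 1 in 10 against 5 mg/mL at day 6 (Nfkbia, against 2.4%). In the other tested contrasts 0 of the 8 did, where the share of all genes was 4.71% and 1.25% for 5 mg/mL at day 6 and day 12, and 1.48% for 10 against 5 mg/mL at day 12. Between the days it was 4.47% at 10 mg/mL, 6.92% at 5 mg/mL and 2.46% in controls, and for the differences in effect 1.86% at 10 mg/mL and 2.05% at 5 mg/mL. For 20 mg/mL, where the set has no test, it was 4.06% at day 6 and 3.69% at day 12. Values for the other genes below are therefore levels and differences that did not pass the test.

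No gene of the set had all its exposed libraries above the controls, which 2.99% to 4.19% of all genes did. By dose, that share was 4.19% for 5, 2.99% for 10 and 4.08% for 20 mg/mL at day 6, and 3.85% for 5, 3.91% for 10 and 3.56% for 20 mg/mL at day 12. Nor did any of the 8 at 5 mg/mL lie wholly below the controls, against 4.13% of all genes at day 6 and 3.94% at day 12. None of the 8 lay wholly lower in 10 against 5 mg/mL at day 6 (3.02%), wholly higher in 10 against 5 mg/mL at day 12 (4.88%) or wholly lower at day 12 than day 6 at 5 mg/mL (5.16%). In controls none separated between the days, against 4.19% of all genes lower and 4.72% higher at day 12. Nfkbia was 1 of 4 genes (0.035%) that lay wholly below the controls in all 4 comparisons of 10 and 20 mg/mL, a pattern that includes the values it was chosen by, and 3 genes (0.0263%), none of the set, lay wholly above.

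Among the cytoplasmic inhibitors, Nfkbib and Nfkbie encode IkappaB-beta and IkappaB-epsilon, which retain NF-kappaB dimers as IkappaB-alpha does. Nfkbib varied little, from 48.7 to 88.4 CPM over the 24 libraries. At 20 mg/mL it averaged 66.2 ± 10.6 CPM at day 6 and 58.3 ± 3.53 CPM at day 12, against 69.9 ± 16.7 and 59.8 ± 4.56 CPM in the controls of those days. Its log2 fold changes over control ran from -0.20 to 0.01 over the 6 exposed groups, with SEs of 0.18 to 0.19, and its exposed and control libraries overlapped in all 6. At 10 mg/mL the 95% interval was -0.58 to 0.17 at day 6 and -0.39 to 0.39 at day 12. Nfkbib overlaps the gene model LOC103689966 in RefSeq, and since the strand setting of the counting is not given, reads of the 2 cannot be told apart.

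Nfkbie was measured thinly, with 6 to 53 counts in a library, so its differences are imprecise. It had 5.49, 5.12 and 6.53 CPM at 5 mg/mL and 6.67, 2.53 and 1.94 CPM in controls at day 12, a log2 fold change of 0.63 (SE 0.55, adjusted p = 1.00 by edgeR). Without control replicate 1 it was 1.35, and without control replicate 3 it was 0.32. The 5 mg/mL libraries of day 12 lay above those of 10 mg/mL, at 3.54, 2.67 and 3.27 CPM, and above those of 5 mg/mL at day 6, at 4.02, 3.92 and 2.31 CPM. The log2 difference of 10 against 5 mg/mL at day 12 was -0.85 (SE 0.55, adjusted p = 1.00), where 4.65% of all genes did not overlap in this direction. Day 12 against day 6 at 5 mg/mL gave 0.73 (SE 0.55, adjusted p = 0.787), against a background of 6.08%. Slc35b2 is its nearest coding neighbour on the left in RefSeq, and how the counting treated reads between them is not given.

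Nfkbiz and Bcl3 encode nuclear members of the family. IkappaB-zeta, the product of Nfkbiz, is itself induced by NF-kappaB and is needed for a second wave of inflammatory genes in mouse macrophages, and Bcl3 binds DNA-bound NF-kappaB dimers. At day 6 Nfkbiz had 35.3, 30.2 and 27.4 CPM in controls, 32.3, 30.0 and 33.1 CPM at 5 mg/mL, 38.0, 34.9 and 35.1 CPM at 10 mg/mL, and 23.1, 25.1 and 37.1 CPM at 20 mg/mL. Its day 12 levels were 21.8, 20.0 and 28.3 CPM in controls, 37.0, 20.6 and 32.5 CPM at 5 mg/mL, 24.5, 31.5 and 27.2 CPM at 10 mg/mL, and 20.2, 24.0 and 24.2 CPM at 20 mg/mL. No exposed group separated from its controls, and the log2 fold changes ran from -0.12 to 0.36 (SEs 0.22 to 0.23). The 10 mg/mL libraries of day 6 lay above those of 5 mg/mL by 0.18 (SE 0.22, adjusted p = 1.00 by edgeR), where 2.57% of all genes did so. The libraries of 10 mg/mL at day 12 lay below those of day 6 by a log2 difference of -0.38 (SE 0.22, adjusted p = 0.896), where 4.19% of all genes did so.

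Bcl3 ranged from 7.51 to 30.9 CPM over the 24 libraries, and its 2 extremes both came from exposed lungs. At 20 mg/mL it had 10.96, 18.9 and 30.9 CPM at day 6 and 15.8, 16.5 and 7.69 CPM at day 12, against 11.7, 16.7 and 22.4 CPM and 14.6, 14.8 and 11.5 CPM in the controls of those days. The log2 fold changes over control ran from -0.26 to 0.27 (SEs 0.38 to 0.39), with overlap in all 6 comparisons. The highest, at 20 mg/mL and day 6, was -0.17 without replicate 3, at 30.9 CPM, and 0.56 without replicate 1. The 10 mg/mL libraries of day 12, at 7.51, 12.5 and 14.8 CPM, lay below those of day 6, at 15.6, 15.8 and 16.97 CPM. That log2 difference was -0.47 (SE 0.38, adjusted p = 0.904 by edgeR), and 4.19% of all genes lay wholly lower there.

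**Figure D2:**
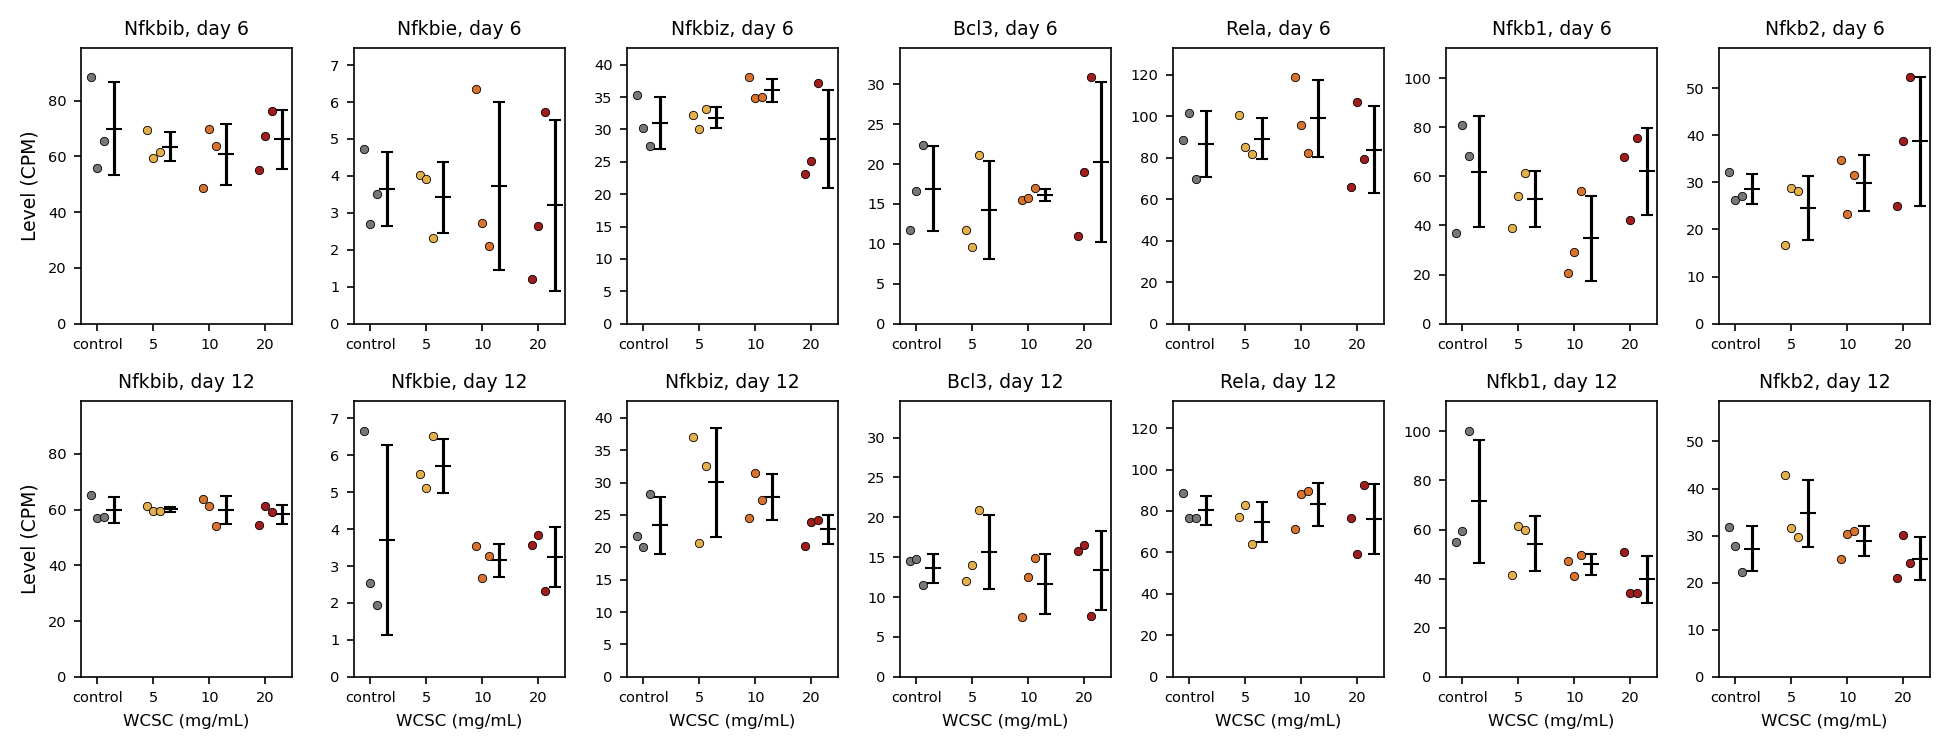
Levels in CPM (vertical axis) of the other 7 genes by WCSC dose in mg/mL (horizontal axis), at day 6 in the upper row and day 12 in the lower row. Points are single libraries and bars are the mean ± SD over 3 libraries. Exposed and control libraries overlap in every panel except Nfkb1 at day 12, where 10 and 20 mg/mL, at 34.1 to 50.7 CPM, lie below the controls at 55.0 to 100.3 CPM.

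The DNA-binding subunits were measured through Rela, Nfkb1 and Nfkb2. Rela encodes the subunit that activates transcription in the commonest dimer. Its levels ran from 59.3 to 118.8 CPM, and at 20 mg/mL it averaged 84.0 ± 20.9 CPM at day 6 and 76.1 ± 16.7 CPM at day 12, against 86.7 ± 15.9 and 80.5 ± 6.99 CPM in the controls of those days (SD, n = 3 each). The log2 fold changes over control lay between -0.11 and 0.19 (SEs 0.21), and the groups overlapped in all 6 comparisons. At 10 mg/mL the 95% interval was -0.24 to 0.62 at day 6 and -0.38 to 0.48 at day 12.

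Nfkb1 encodes the precursor of Rela's usual partner, and the precursor itself can act as an inhibitor. At day 12 it had 55.0, 59.2 and 100.3 CPM in controls, 41.5, 61.3 and 59.9 CPM at 5 mg/mL, 47.1, 41.0 and 49.5 CPM at 10 mg/mL, and 50.7, 34.1 and 34.2 CPM at 20 mg/mL. All libraries of 10 and 20 mg/mL lay below the controls there, as was so for 4.55% of all genes at 10 mg/mL and 4.11% at 20 mg/mL. Nfkb1 and Nfkbia were the 2 of the 8 genes that did so, but Nfkbia at 20 mg/mL chose the set and its 10 mg/mL value shares those controls, so nothing is read from that count. The log2 fold change was -0.64 (SE 0.33, adjusted p = 1.00 by edgeR) at 10 mg/mL and, with no test, -0.85 (SE 0.34) at 20 mg/mL. Both use the same controls, and without control replicate 3, at 100.3 CPM, they were -0.31 and -0.53. At 5 mg/mL the value of -0.40 (SE 0.33, adjusted p = 1.00) became -0.07 without that library.

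At day 6 Nfkb1 had 36.9, 80.8 and 68.3 CPM in controls, 39.0, 52.0 and 61.4 CPM at 5 mg/mL, 20.8, 29.1 and 54.1 CPM at 10 mg/mL, and 68.0, 42.1 and 75.8 CPM at 20 mg/mL. The log2 fold change was -0.84 (SE 0.34, adjusted p = 0.989 by edgeR) at 10 mg/mL, with overlapping groups, and -0.00032 (SE 0.33) at 20 mg/mL. The 2 lowest libraries, replicates 1 and 2 of 10 mg/mL, are among the 8 with the fewest genes detected. Nfkb1's deviations from its group means correlated with the number of genes detected at r = 0.67 over the 24 libraries, Bcl3's at 0.63, Rela's at -0.50 and Nfkbia's at -0.01, as a description. Rela's log2 fold change at 10 mg/mL and day 6, 0.19, was -0.060 without the 8 libraries. Without the 8 libraries the Nfkb1 log2 fold change at 10 mg/mL and day 6 was -0.46, with the number of genes as a covariate it was -0.69, and without replicate 3 of 10 mg/mL it was -1.31. For Nfkbia the same comparison gave -0.94 without the 8 libraries and -0.96 with the covariate. At 10 mg/mL and day 6, leaving out the 8 libraries kept only replicate 3, against control replicates 2 and 3. The Rela, Nfkb1 and Nfkbia values without the 8 libraries therefore rest on a single exposed library.

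Nfkb2 encodes the precursor that is processed in the non-canonical branch of the pathway. At day 6 it had 32.3, 26.3 and 27.2 CPM in controls, 16.8, 28.9 and 28.1 CPM at 5 mg/mL, 34.8, 23.2 and 31.6 CPM at 10 mg/mL, and 24.97, 38.9 and 52.3 CPM at 20 mg/mL. Its log2 fold change at 20 mg/mL was 0.44 (SE 0.26), and it was 0.16 without replicate 3, at 52.3 CPM, and 0.67 without replicate 1. At day 12 it averaged 34.7 ± 7.11 CPM at 5 mg/mL, 28.8 ± 3.26 CPM at 10 mg/mL and 25.1 ± 4.62 CPM at 20 mg/mL, against 27.2 ± 4.79 CPM in controls (SD, n = 3 each). Exposed and control libraries overlapped in all 6 comparisons. At 5 mg/mL the libraries of day 12 lay above those of day 6 by a log2 difference of 0.50 (SE 0.27, adjusted p = 0.718 by edgeR), and 6.08% of all genes lay wholly higher there.

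**Figure D3:**
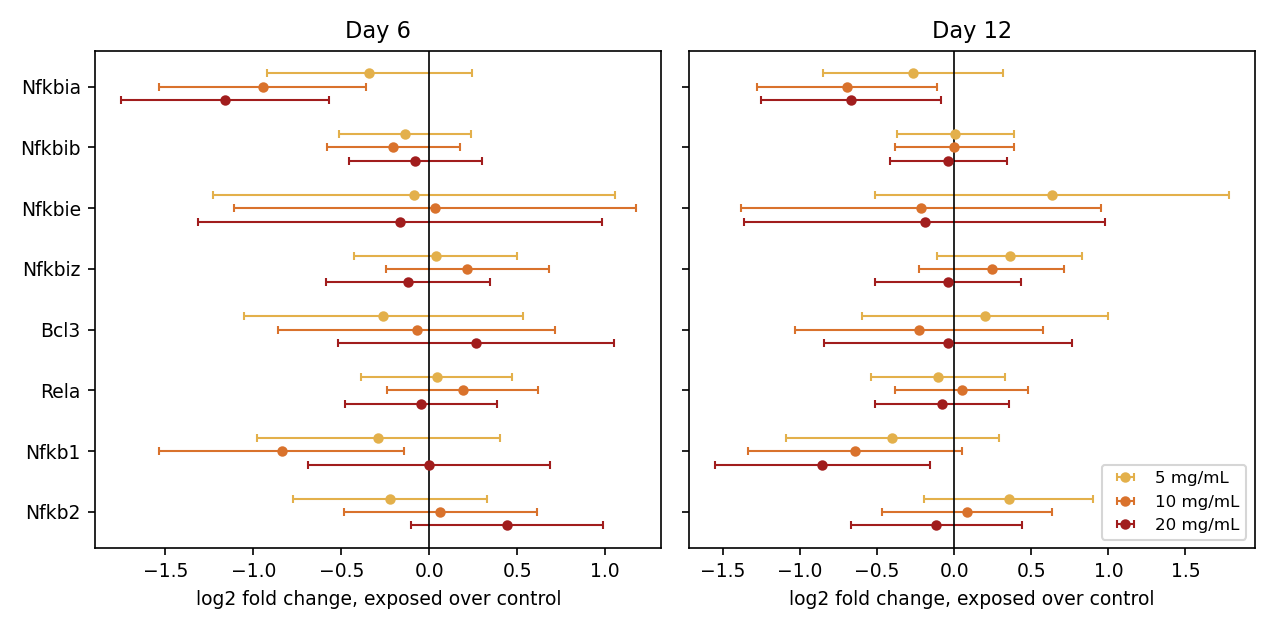
Log2 fold change of exposed over control (horizontal axis) for the 8 genes (rows) at day 6 on the left and day 12 on the right, from the edgeR fit of all groups. Points are the estimates for 5, 10 and 20 mg/mL and lines are 95% intervals, with 3 libraries in each group. The Nfkbia intervals at 10 and 20 mg/mL lie below 0 at both days. Its 20 mg/mL values chose the set and its 10 mg/mL values share their controls, so these intervals are no test. The intervals of Nfkb1 at 10 mg/mL and day 6 and at 20 mg/mL and day 12 also lie below 0. All other intervals include 0, and no value passed the adjusted threshold at 5 or 10 mg/mL.

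Within groups, where the differences between doses are removed, Nfkbia was correlated with each of the 7 others over the 24 libraries. The correlation with Nfkb2 was the strongest of the 7 pairs, with r = -0.53 (permutation p = 0.0863, adjusted over 7 pairs 0.604) and rho = -0.55 (permutation p = 0.0345, adjusted 0.241). It was r = -0.33 without the 2 libraries farthest from the median of Nfkbia, replicates 1 and 2 of 5 mg/mL at day 6, and did not pass the adjustment. The other 6 pairs had r between -0.07 and 0.16, with adjusted permutation p = 0.874 for each.

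Genes whose levels were most like those of Nfkbia were found by Pearson's r of log2 CPM over the 24 libraries among 8855 named genes averaging at least 5 CPM. They were Cebpd (r = 0.80, rho = 0.83), Csrnp1 (0.78 and 0.66), Spidr (0.78 and 0.77), Ddit4 (0.74 and 0.63) and Satb1 (0.72 and 0.68). These libraries share their dose groups, so the values are descriptions. Cebpd encodes an acute-phase transcription factor. It averaged 76.1 ± 14.1 CPM at 20 mg/mL and 110 ± 21.6 CPM at 10 mg/mL, against 243 ± 41.8 CPM in controls at day 6 (SD, n = 3 each). At day 12 the means were 128 ± 18.9 and 149 ± 12.9 CPM, against 202 ± 65.4 CPM in controls, with overlap. Spidr, a DNA repair gene that lies next to Cebpd, averaged 24.7 ± 5.24 CPM at 20 mg/mL against 67.6 ± 20.3 CPM in controls at day 6, and 29.2 ± 5.79 against 72.9 ± 29.4 CPM at day 12. Since the strand setting is not given, its reads and those of Cebpd may not be fully separate.

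Ddit4, a stress-induced inhibitor of mTOR signalling, averaged 38.3 ± 4.48 CPM at 20 mg/mL and 31.7 ± 7.40 CPM at 10 mg/mL, against 83.1 ± 23.3 CPM in controls at day 12, and both exposed groups lay wholly below the controls, as did 4.11% of all genes at 20 mg/mL and 4.55% at 10 mg/mL. At day 6 it averaged 37.1 ± 12.1 CPM at 20 mg/mL and 35.8 ± 14.8 CPM at 10 mg/mL, against 81.3 ± 27.0 CPM in controls, and the 10 mg/mL libraries overlapped with the controls. Satb1, a chromatin organiser of T cells, averaged 26.3 ± 5.13 CPM at 20 mg/mL against 48.8 ± 5.74 CPM in controls at day 6. Its day 12 levels at 20 mg/mL, 34.2, 49.5 and 31.7 CPM, overlapped with 39.4, 40.3 and 48.99 CPM in controls. Csrnp1, a nuclear protein gene, had 13.6, 17.1 and 18.1 CPM at 20 mg/mL and 19.6, 30.1 and 24.8 CPM at 10 mg/mL, against 36.4, 37.7 and 34.9 CPM in controls at day 6. Its day 12 levels were 28.3, 30.5 and 23.3 CPM at 20 mg/mL and 22.5, 24.7 and 31.6 CPM at 10 mg/mL, against 45.3, 37.0 and 37.3 CPM in controls. Ranked instead by deviations from the group means, the 5 nearest genes were Dpep2 (r = 0.74, rho = 0.58), Ada (0.74 and 0.39), Thsd1 (0.72 and 0.51), Gimap7 (0.72 and 0.52) and Psmg1 (0.70 and 0.55). The libraries farthest from the median of Nfkbia, replicates 1 and 2 of 5 mg/mL at day 6, were kept in this ranking. No gene was in both lists of 5.

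**Figure D4:**
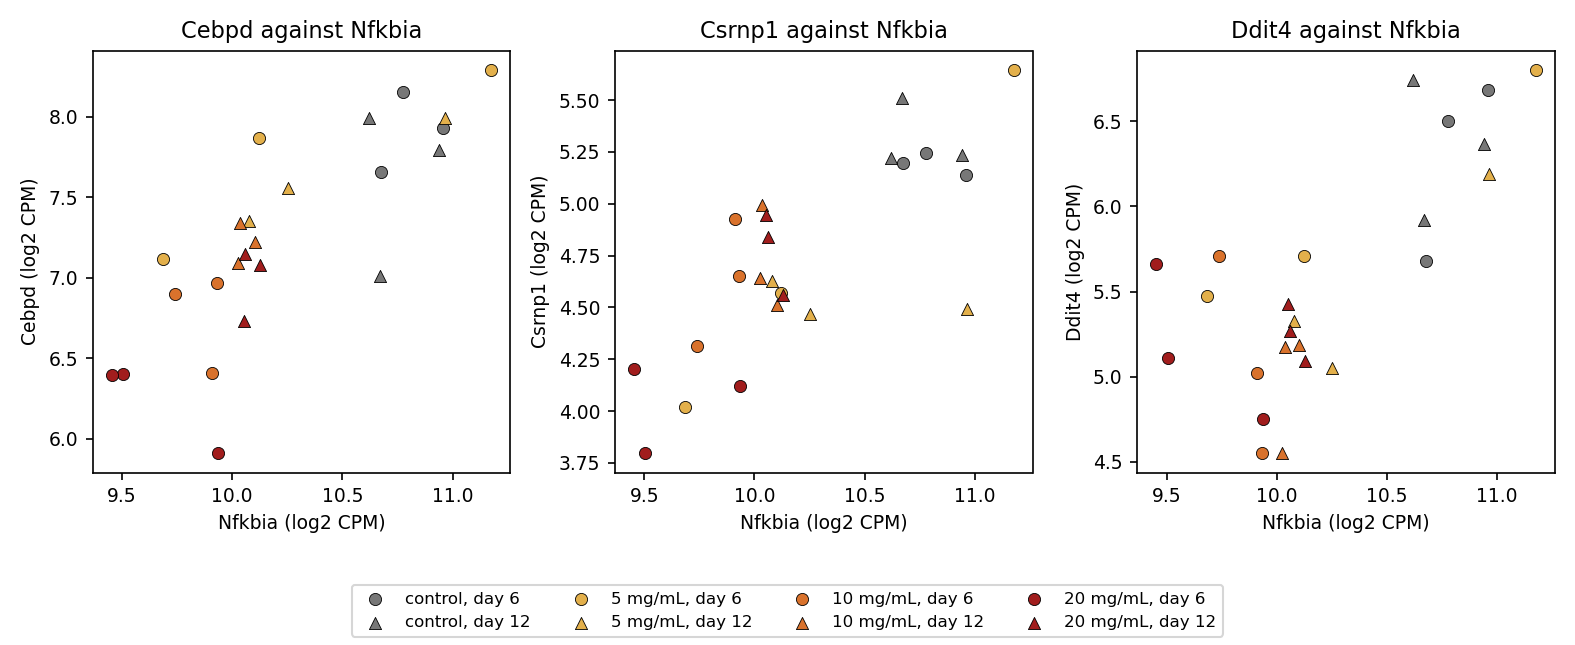
Log2 CPM of Cebpd, Csrnp1 and Ddit4 (vertical axes) against log2 CPM of Nfkbia (horizontal axis), each point 1 of the 24 libraries. Colour gives the dose, circles day 6 and triangles day 12. The libraries of 10 and 20 mg/mL all lie left of the controls. On the vertical axis they lie below the controls of their day for Csrnp1, while 1 control of day 12 for Cebpd, at 129 CPM, and 1 of day 6 for Ddit4, at 50.9 CPM, lie among them, with 1 library of 5 mg/mL at day 6 highest on both axes.

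The rest of the pathway was described through 5 lists. In no list did a gene pass the edgeR test at 5 or 10 mg/mL, in either direction. Of 18 receptors and adaptors 16 were tested, and their median log2 fold change lay between -0.12 and 0.03 over the 6 exposed groups. Tlr4, the lipopolysaccharide receptor, averaged 2.10 ± 0.807 CPM at 10 mg/mL and 3.74 ± 1.27 CPM in controls at day 6, with overlap. Tlr2 averaged 7.90 ± 2.93 CPM at 10 mg/mL and 5.56 ± 3.58 CPM in controls, and Il1r1, the interleukin-1 receptor, 2.18 ± 2.61 and 4.71 ± 3.09 CPM. Of 12 kinases 10 were tested, with medians between -0.27 and 0.02. Chuk and Ikbkb, which encode the catalytic IkappaB kinases, had log2 fold changes over control at 10 mg/mL of 0.21 (SE 0.27) and -0.02 (SE 0.31) at day 6, and 0.28 (SE 0.27) and 0.22 (SE 0.32) at day 12. Map3k7, the kinase above them, had -0.03 (SE 0.31) and 0.08 (SE 0.31). The median over all 11421 genes was between -0.01 and 0.01 in these comparisons.

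Of 18 genes listed as other inhibitors 17 were tested, with medians between -0.15 and 0.02. The list also holds Sharpin, Rbck1, Rnf31 and Birc3, and whether these damp or activate the pathway was not tested. Its medians are therefore not read as those of inhibitors alone. Cyld, a deubiquitinase that damps the pathway, averaged 9.73 ± 4.09 CPM at 20 mg/mL and 14.1 ± 5.47 CPM in controls at day 12, with overlap (SD, n = 3 each). Tnip1, a partner of the Tnfaip3 protein, had log2 fold changes between -0.25 and 0.21, and Tnip2 between -0.36 and 0.29.

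Targets of NF-kappaB were split into 20 cytokines and chemokines, of which 12 were tested, and 22 genes of adhesion, survival and enzymes, of which 19 were tested. At day 6 the median log2 fold change of the cytokines was 0.32 in lungs given 5 mg/mL, 0.24 for 10 mg/mL and 0.34 for 20 mg/mL, with 9, 8 and 9 of the 12 above 0. These 3 comparisons share the same 3 control libraries. Medians of the macrophage, neutrophil, and T and NK cell marker sums were also above the control median at day 6 at each dose, with overlapping ranges. The B and plasma cell markers had medians of 43.1 CPM at 5, 33.9 CPM at 10 and 35.3 CPM at 20 mg/mL, against 37.6 CPM in controls. The part of these cells in the list's values was not tested. The 9 measured of 10 macrophage markers, with Marco at 0 in every group, summed to 18314 to 34507 CPM in controls, 18782 to 45904 CPM at 5 mg/mL, 18104 to 48689 CPM at 10 mg/mL, and 26669 to 36824 CPM at 20 mg/mL. The 9 neutrophil markers summed to 180 to 768 CPM in controls (Cxcr2 at 0), 263 to 967 CPM at 5 mg/mL (Elane at 0), 267 to 850.1 CPM at 10 mg/mL (Mpo and Cxcr2 at 0) and 317 to 687 CPM at 20 mg/mL (Mpo and Elane at 0). At day 12 the medians were 0.13, -0.01 and 0.01, with 6 of 12 above 0 at each dose. Il1b, the inflammasome cytokine, had 91.5, 66.6 and 42.2 CPM at 10 mg/mL against 54.7, 26.4 and 23.9 CPM in controls at day 6, a log2 fold change of 0.93 (SE 0.34, adjusted p = 0.989 by edgeR). At day 12 it had 55.2, 38.4 and 42.4 CPM at 10 mg/mL against 55.2, 73.1 and 48.2 CPM in controls, a log2 fold change of -0.38 (SE 0.34, adjusted p = 1.00). Tnf was near its limit of counting, with 9 to 16 counts at 10 mg/mL against 0 to 2 counts in controls at day 12. Its log2 fold change there was 3.24 (SE 1.15, adjusted p = 1.00). Tnf averaged 1.83 ± 0.54 CPM at 10 mg/mL at day 12 and 1.83 ± 0.51 CPM at day 6. The controls of those days averaged 0.19 ± 0.20 and 1.58 ± 0.95 CPM, and the day 6 log2 fold change was 0.20 (SE 0.91). Il1a averaged 7.89 ± 3.68 CPM at 10 mg/mL and 6.62 ± 1.13 CPM in controls at day 6.

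The adhesion, survival and enzyme targets had medians between 0.06 and 0.13. Icam1, the leukocyte adhesion molecule, averaged 361 ± 48.3 CPM at 10 mg/mL and 368 ± 25.8 CPM in controls at day 6, and 394 ± 73.1 against 376 ± 38.0 CPM at day 12. Vcam1 had log2 fold changes at 10 mg/mL of 0.03 (SE 0.23) at day 6 and 0.23 (SE 0.23) at day 12. Sele, the endothelial selectin, averaged at most 1.66 CPM in any group. Il6 had 13 counts over all 24 libraries, Csf3 had 0, and Nos2 had 2, too few for a test.

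**Figure D5:**
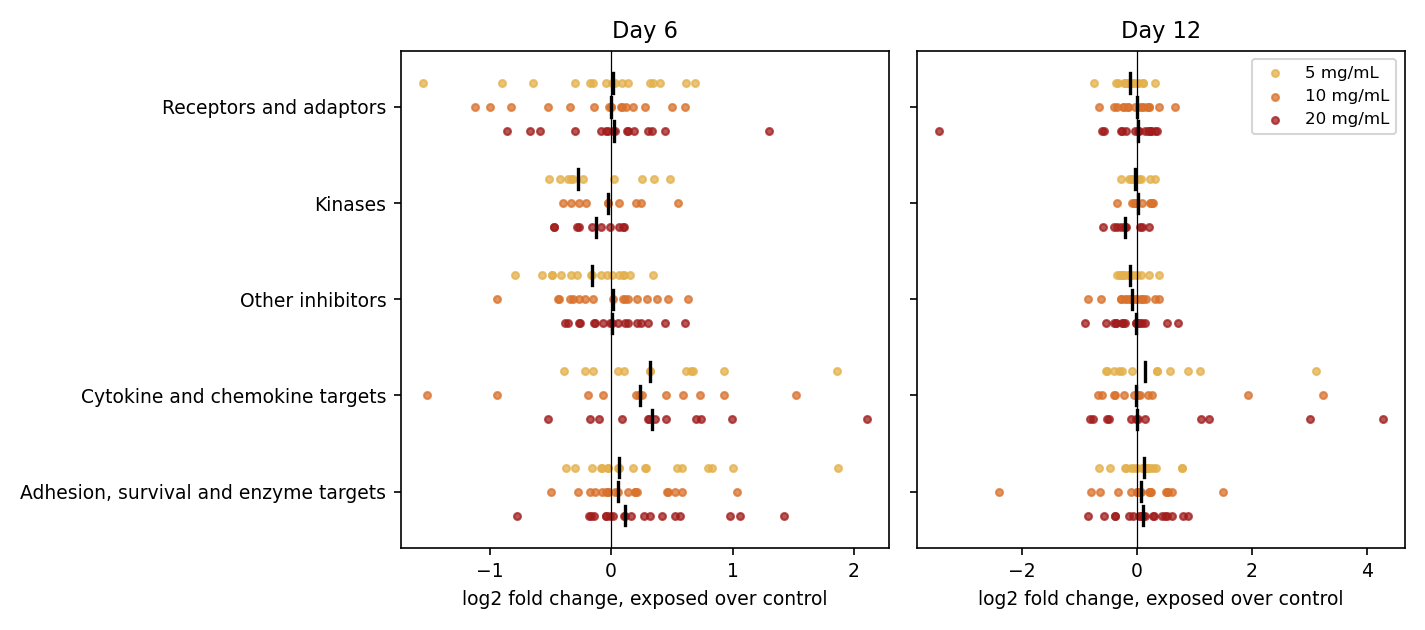
Log2 fold change of exposed over control (horizontal axis) for the tested genes of the 5 pathway lists (rows), at day 6 on the left and day 12 on the right. Each point is 1 gene, the colour gives the dose and the black bar is the median of the list. Most medians lie near 0, the cytokine and chemokine list lies at 0.24 to 0.34 at day 6, and no gene passed the adjusted threshold at 5 or 10 mg/mL.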

How the data were processed

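RNA of 24 rat lung samples was extracted with Trizol and made into libraries with a Lexogen QuantSeq kit, per the labels' protocols. Whole-number read counts per gene symbol were deposited by the authors, who used Bowtie2, bedtools and the rn6 build, per the submitters' processing notes, with versions not given in the sources used here. Where a symbol was repeated, the line with the most counts was kept, which left out 167 lines with 0.772% of the counts. Counts were fitted with edgeR 4.0.16 in R 4.3.3 (TMM scaling, filterByExpr, quasi-likelihood test, 8 group means, Benjamini-Hochberg adjustment over 11421 genes, threshold 0.05). Total counts per library limit the precision, with 4795667 to 11109713 counts and a common biological coefficient of variation of 0.335. Within-group correlations used 100000 permutations. The test was tried on simulated counts first. Alternatives used DESeq2 1.42.0 and limma 3.58.1. The genes of the set and the lists were chosen with earlier results of these data known. Named were all genes of the set, the first 3 tested genes of each pathway list, and the 5 genes most like Nfkbia by each of 2 measures. Il6, Csf3 and Nos2 in the report, and the further genes under other observations, were chosen after their values were seen.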

Additional observations from a re-analysis of the deposited data

How the results depend on the processing

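The log2 fold changes of Nfkbia over control kept their sign under the 10 other settings and with each library left out. No gene of the set passed the adjusted threshold in a tested comparison. The lowest adjusted p was 0.0573 (limma voom), for Nfkb1 at 10 mg/mL against control at day 6. For Nfkbia in that comparison the lowest over the 10 other settings was 0.0578, against 0.989 by edgeR. That comparison shares its controls with the values that chose the set. The number of genes called, 0 by edgeR, was for 20 mg/mL at day 6 1 with RLE scaling, 1 with no filter, 3 with DESeq2, 2 with voom, 1 with the replicate block, 1 with genes detected as a covariate and 3 without the 8 libraries with the fewest genes. For 20 mg/mL at day 12 it was 4 with DESeq2, 2 with voom and 1 with only the groups compared. For 10 mg/mL it was 5 with voom at day 6, and at day 12 1 with DESeq2, 2 with only the groups compared and 1 without the 8 libraries. For 5 mg/mL DESeq2 called 2 genes at day 6, 1 at day 12 and 2 for the difference between the days. For 10 against 5 mg/mL at day 12 it was 3 with only the groups compared and 1 without the 8 libraries. For day 12 against day 6 at 10 mg/mL no count is given without the 8 libraries, since that fit kept only replicate 3 of day 6. With single libraries left out, the number of genes called ranged from 0 to 2 for 5 mg/mL at day 6. It ranged from 0 to 1 for day 12 against day 6 at 10 mg/mL and likewise at 5 mg/mL.

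The small log2 fold changes of the other genes turned sign under some settings, and the cause was not tested. At 10 mg/mL and day 6, voom gave 0.059 for Nfkbib and -0.035 for Nfkb2, the covariate gave -0.061 for Nfkbie and 0.13 for Bcl3, and leaving out the 8 libraries gave 0.072 for Nfkbib, -0.56 for Nfkbie and -0.060 for Rela. At 5 mg/mL and day 6, voom gave 0.054 for Nfkbib and 0.21 for Nfkbie, and the covariate gave -0.045 for Rela. Leaving out the 8 libraries gave 0.017 for Nfkbib, 0.069 for Nfkb2, -0.072 for Rela and 0.11 for Bcl3. At day 6, leaving out the 8 libraries kept only replicate 3 at 5 mg/mL and at 10 mg/mL, against control replicates 2 and 3. Each of those day 6 values therefore rests on a single exposed library. At 10 mg/mL and day 12, Nfkbib was 0.00454 with no filter, 0.059 with voom, 0.0072 with only the groups compared, 0.017 with the covariate, 0.067 without the 8 libraries and 0.00483 without rRNA and globin genes, and Nfkbie was 0.43 with voom and 0.51 without the 8 libraries. At 20 mg/mL, where the values are descriptions, the ranges over these settings that crossed 0 at day 6 were -0.081 to 0.12 for Nfkbib, -0.26 to 0.20 for Nfkbie, -0.13 to 0.075 for Nfkbiz and -0.30 to 0.043 for Nfkb1. At day 12 they were -0.066 to 0.019 for Nfkbib, -0.22 to 0.73 for Nfkbie, -0.14 to 0.035 for Nfkb2, -0.17 to 0.022 for Rela and -0.13 to 0.30 for Bcl3.

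With single libraries left out, the ranges that crossed 0 at 10 mg/mL and day 6 were -0.34 to 0.0018 for Nfkbib, -0.59 to 0.31 for Nfkbie, -0.061 to 0.22 for Nfkb2 and -0.28 to 0.18 for Bcl3. At 5 mg/mL and day 6 they were -0.28 to 0.065 for Nfkbib, -0.26 to 0.14 for Nfkbie, -0.044 to 0.14 for Nfkbiz and -0.092 to 0.17 for Rela. At 10 mg/mL and day 12 they were -0.050 to 0.070 for Nfkbib, -0.53 to 0.50 for Nfkbie, -0.044 to 0.21 for Nfkb2, -0.0089 to 0.15 for Rela and -0.44 to 0.00997 for Bcl3. At 5 mg/mL and day 12 they were -0.025 to 0.071 for Nfkbib and -0.066 to 0.36 for Bcl3. At 20 mg/mL and day 6 they were -0.22 to 0.13 for Nfkbib, -0.88 to 0.20 for Nfkbie, -0.36 to 0.00395 for Nfkbiz, -0.27 to 0.24 for Nfkb1, -0.26 to 0.10 for Rela and -0.17 to 0.56 for Bcl3. At 20 mg/mL and day 12 they were -0.074 to 0.027 for Nfkbib, -0.51 to 0.53 for Nfkbie, -0.14 to 0.12 for Nfkbiz, -0.26 to 0.00717 for Nfkb2, -0.25 to 0.075 for Rela and -0.22 to 0.25 for Bcl3. For Nfkbia between the days they were -0.30 to 0.57 at 5 mg/mL, -0.17 to 0.022 in controls and -0.24 to 0.63 for the difference in the effect of 5 mg/mL.

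Not every same-numbered pair of libraries correlated above 0.1, so the numbers were not taken to pair the samples. This rule cannot exclude a pairing or a batch by number, since some same-numbered pairs correlated and others did not. The median correlation of deviations at day 6 was 0.22 for same-numbered pairs, with 11 of 18 over 0.1, and -0.14 for the others, with 11 of 36, and the 6 pairs of replicate 3 lay between 0.25 and 0.73. At day 12 it was 0.044 with 6 of 18, and -0.049 with 11 of 36. Over both days, 12 of 24 libraries correlated best with their own number. With the replicate block, Nfkbia's log2 fold change was -1.16 at 20 mg/mL and -0.95 at 10 mg/mL at day 6, and -0.66 and -0.68 at day 12. Nfkbie, with 6 to 53 counts a library, is limited by depth.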

Other observations

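Genes that stood apart from controls as Nfkbia did were counted after its values were seen, so the genes named here were chosen after their values were seen too. At both days and at both 10 and 20 mg/mL, 4 of 11421 genes (0.035%) had every exposed library below every control library of its day, namely Nfkbia, Csrnp1, Arrdc3 and Ovca2, and 3 (0.0263%) had every one above, namely Fkbp5, Zbtb16 and P2rx3. Zbtb16, a transcription factor gene, had 65.2, 63.4 and 64.6 CPM at 20 mg/mL and 18.5, 27.7 and 53.3 CPM at 10 mg/mL, against 0.893, 8.54 and 6.47 CPM in controls at day 6. At day 12 it had 96.0, 34.1 and 69.1 CPM at 20 mg/mL and 26.4, 27.4 and 21.4 CPM at 10 mg/mL, against 6.06, 3.43 and 4.72 CPM in controls. Fkbp5, which encodes a co-chaperone of steroid receptors, averaged 71.5 ± 9.91 CPM at 20 mg/mL and 58.7 ± 8.11 CPM at 10 mg/mL, against 34.3 ± 12.0 CPM in controls at day 6, and 94.3 ± 47.0 and 51.4 ± 16.8 CPM, against 26.9 ± 4.64 CPM, at day 12 (SD, n = 3 each). A shared regulator of the genes named here was not tested. Arrdc3 averaged 6.35 ± 1.53 CPM at 20 mg/mL against 9.65 ± 2.21 CPM in controls at day 6. P2rx3 had at most 17 counts in a library.

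Among the NF-kappaB targets, Junb had 104, 74.7 and 209 CPM at 10 mg/mL against 41.2, 41.5 and 55.1 CPM in controls at day 12, a log2 fold change of 1.49 (SE 0.36, unadjusted p 0.000459, adjusted p = 1.00 by edgeR). Ccl2, a monocyte chemokine, had 22.5, 14.0 and 15.8 CPM at 10 mg/mL against 1.01, 5.42 and 7.08 CPM in controls at day 12, a log2 fold change of 1.93 (SE 0.79, adjusted p = 1.00 by edgeR). At day 6 it had 5.62, 7.09 and 7.15 CPM at 10 mg/mL against 2.04, 1.76 and 3.10 CPM in controls. In these 3 comparisons the exposed libraries lay wholly above the controls, as did 2.99% of all genes at day 6 and 3.91% at day 12, and none passed the adjusted threshold. Junb at 10 mg/mL and day 6 had a log2 fold change of 0.46 (SE 0.36, adjusted p = 0.989 by edgeR), with overlap. It also overlapped with the day 6 controls at 5 mg/mL (0.58, SE 0.36) and at 20 mg/mL (0.16, SE 0.36). At day 12 Junb lay wholly above the controls at 5 mg/mL (0.78, SE 0.36) and at 20 mg/mL (0.89, SE 0.36) as well. Its day 12 comparisons share the same controls, and the 5 mg/mL value did not pass the adjusted threshold. Ccl2 at 20 mg/mL overlapped with the controls at both days, with log2 fold changes of 2.11 (SE 0.82) at day 6 and 1.25 (SE 0.79) at day 12. At 5 mg/mL Ccl2 lay wholly above the controls at day 6, as did 4.19% of all genes, and overlapped with them at day 12.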
